A study of Mus musculus with 4 samples.

Results

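The 39 genes described here encode enzymes that oxidise fuel carbon in mitochondria, together with the cytosolic partners that shuttle it. They were chosen by symbol from the 32285 mouse genes listed in each deposited matrix, and all 39 symbols were found in all 4 libraries. They fall into 4 arms: 13 genes of the tricarboxylic acid (TCA) cycle, 7 of the malate-aspartate shuttle and anaplerosis, 16 of branched-chain amino acid catabolism and 3 of ketone body catabolism. The study asks how YAP, a co-activator held in check by Hippo signalling, bears on the fuels that heart muscle cells use.

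Nuclei came from whole hearts of wild-type mice at postnatal day 12 and were read by 10x Genomics 3′ sequencing, which counts each captured RNA once by its unique molecular identifier (UMI). Control mice received saline at postnatal day 7. YAP5SA mice received AAV9-cTNT-YAP5SA at the same age, an adeno-associated virus whose cardiac troponin T promoter directs an active, phosphorylation-resistant YAP to cardiomyocytes. The mothers' feed over 5 days was either chow or a diet rich in fat (HFD). Each of the 4 groups held 1 library. Values of all libraries are listed with the chow pair first and the HFD pair second, and within each pair the control comes before YAP5SA. The controls carried no virus, so the virus and its cargo cannot be told apart. How many hearts went into a library, and their strain, is not stated in the sources used here. Groups follow the sample titles. The treatment field names HFD for the library titled YAP5SA on chow, and chow for the library titled control on HFD. Titles and treatment fields give the same split by virus, and statements about diet rest on the titles. If the treatment field is right, diet and virus changed together and cannot be told apart in any YAP5SA comparison.

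The TCA cycle takes acetyl-CoA from fats, sugars, ketones and amino acids and yields the reduced cofactors that feed the respiratory chain. The malate-aspartate shuttle carries cytosolic reducing equivalents into mitochondria, and malic enzymes and pyruvate carboxylase exchange carbon between pyruvate and cycle intermediates. Branched-chain amino acids and ketone bodies are further fuels that end in acetyl-CoA or succinyl-CoA. Heart muscle is among the tissues richest in mitochondria, and it moves toward oxidative fuels after birth.

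The libraries held 43408234 to 61191454 UMIs, and 6048, 8068, 8018 and 10009 nuclei were kept. Pairs of libraries shared 7 to 27 barcodes. Cardiomyocyte-like nuclei, named from markers, numbered 3625, 4937, 3174 and 5163. In their sums Ttn, the giant sarcomere protein used as a defining marker, stood at 18950, 11630, 19420 and 13160 CPM (a gene's share of all UMIs of mouse genes, on the usual counts-per-million scale). The 14 cardiomyocyte markers together stood at 56430, 37880, 60110 and 38090 CPM, and 12 of the 14 were lower in the YAP5SA library on both diets. The class includes the atrial cluster 18, which held 14, 82, 87 and 194 of its nuclei. Sums of 5 atrial markers were 88.97, 486.6, 172.3 and 214.2 CPM, and 3 of the 5 were higher in the YAP5SA library on both diets. Markers of other cell types also differed in these sums. Macrophage markers were higher on both diets for 7 of 9, with sums of 29.2, 55.81, 35.88 and 77.12 CPM, and smooth muscle markers for 5 of 6, with sums of 164.9, 713.2, 198.4 and 192.2 CPM. Fibroblast markers were lower on both diets for 9 of 11, with sums of 311.8, 278.1, 591.4 and 358.5 CPM. Sums of 5 endocardial markers were 805.9, 349.3, 791.1 and 327.9 CPM, and those of 8 pericyte markers were 470.3, 181.6, 427.0 and 247.3 CPM. None of these markers was at 0, and their part in the results was not tested. Yap1 itself stood at 136.6, 107.1, 128.4 and 120.2 CPM. The YAP targets Ccn2, at 36.19, 362.1, 41.73 and 164.8 CPM, and Ankrd1, at 1124, 3138, 980.1 and 1894 CPM, were high in both YAP5SA libraries. Xist, the RNA that silences an X chromosome in female cells, stood at 2474, 5.988, 2548 and 2522 CPM over all nuclei, so the library of YAP5SA on chow came from male tissue and the others from female tissue. The chow comparison therefore sets a male library against a female one, and sex and virus cannot be told apart in it. HFD against chow within YAP5SA likewise sets a female library against a male one, so sex and diet cannot be told apart there. The same limit holds wherever a virus fold on chow is set beside that on HFD.

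Promoters of 35 of the 39 genes were found in a RefSeq table (GRCm38.p6), each with 250 bases before and 50 bases after a start site. They were searched on both strands for 5 motifs: TCAAGGTCA (estrogen-related receptor element), the DR1 direct repeat bound by PPAR with RXR, the NRF1 element, TGACGTCA (cyclic AMP response element, CRE) and GGAATG (TEAD, the DNA-binding partner of YAP). No member promoter held the first 3, which are found at 0.466%, 0.0481% and 1.07% of all 27025 genes in the table. The CRE letters stood in 2 of 35 members, Ogdh and Mdh2 (5.71%, against 2.03% of all genes). The TEAD letters stood in 5 of 35, namely Aldh6a1, Mdh1, Me1, Oxct1 and Pccb (14.3%, against 16.6%). The 250 bases before the first listed start are shown for both CRE promoters, because Ogdh had the most UMIs of the TCA arm, and for Oxct1, which differed most between diets in the YAP5SA libraries among members at a mean of at least 10 CPM. Capitals mark the motif, which begins 51, 127 and 125 bases before the start in Ogdh, Mdh2 and Oxct1 and in Oxct1 reads in reverse complement. The stretches are all on the plus strand of GRCm38.p6, Ogdh at chr11:6291347-6291596, Mdh2 at chr5:135778399-135778648 and Oxct1 at chr15:4026178-4026427.
Ogdh: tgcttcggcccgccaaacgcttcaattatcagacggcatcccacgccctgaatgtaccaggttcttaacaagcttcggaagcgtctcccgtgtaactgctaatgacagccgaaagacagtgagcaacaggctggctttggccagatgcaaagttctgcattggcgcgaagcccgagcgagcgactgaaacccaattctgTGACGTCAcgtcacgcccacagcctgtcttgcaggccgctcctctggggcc
Mdh2: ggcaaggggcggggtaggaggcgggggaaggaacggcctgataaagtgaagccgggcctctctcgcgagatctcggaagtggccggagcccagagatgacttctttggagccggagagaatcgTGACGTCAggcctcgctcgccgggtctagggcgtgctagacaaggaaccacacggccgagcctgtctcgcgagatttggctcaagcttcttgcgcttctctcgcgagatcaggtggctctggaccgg
Oxct1: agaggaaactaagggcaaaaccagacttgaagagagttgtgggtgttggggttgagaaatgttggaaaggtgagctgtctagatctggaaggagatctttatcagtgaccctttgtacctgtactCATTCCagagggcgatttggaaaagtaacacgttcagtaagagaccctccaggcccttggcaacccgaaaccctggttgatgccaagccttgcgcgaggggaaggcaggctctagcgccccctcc
These are starts in RefSeq. In the mm10 annotation used for gene positions Mdh2 starts at 135778480 and Oxct1 at 4026383, so both stretches end inside the listed gene, and the marked letters of Mdh2 lie inside it. A match of letters is a description of the window and shows no binding.

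In cardiomyocyte-like nuclei the TCA cycle arm was lower with YAP5SA on both diets, while the malic enzymes Me3 and Me1 were higher on both, of which Me3 passed the test. The 13 TCA genes together held 1967, 1129, 2115 and 1261 CPM, so both control libraries lay above both YAP5SA libraries. The log2 fold of YAP5SA over control was -0.80 on chow (95% interval -0.82 to -0.78) and -0.75 on HFD. Intervals of this kind come from the conditional binomial distribution and cover counting error only, since each such fold compares 1 library with 1 library. The branched-chain arm held 708.2, 507.4, 645.9 and 536.1 CPM, with log2 folds of -0.48 and -0.27. The ketone arm held 451.3, 349.4, 452.4 and 250.7 CPM, with log2 folds of -0.37 and -0.85. The shuttle and anaplerosis arm held 682.2, 587.7, 642.3 and 716.1 CPM, with log2 folds of -0.22 and 0.16. On HFD its direction turned to -0.04 when libraries were scaled by DESeq2 size factors, and without Me3, the member with 36.3% of its UMIs, it stood at -0.77 and -0.28.

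The virus comparison was tested with edgeR's quasi-likelihood test over 2 control and 2 YAP5SA libraries, diets together, with Benjamini-Hochberg adjustment over 17018 genes. Nothing in the labels says whether the libraries came from separate litters, so p-values measure only the spread between these libraries. Of 38 members tested 9 fell (23.7%) and 1 rose (2.63%), where 3.67% of all genes tested fell and 7.13% rose. An unadjusted p under 0.05 was found for 22 members, 21 of them lower, and for 28.7% of all genes. The 9 that fell were Ogdh, Idh2, Idh3b, Dld and Fh1 of the TCA arm, Got2, Mdh1 and Got1 of the shuttle, and Hibch of the branched-chain arm. Me3 was the member that rose. These calls rest on few libraries. Without control on chow 1 of the 9 falls was kept (Ogdh), and without control on HFD 2 were (Idh2 and Got2). Without YAP5SA on chow 4 were kept and Oxct1 was newly called, and without YAP5SA on HFD 6 were kept and Sucla2 and Mdh2 were newly called. Me3 was lost each time. Each of these fits leaves 1 library on one side, which is assumed to vary like the 2 of the other side. The median estimate over the TCA genes was -0.69 with all libraries, -0.73 without control on chow and -0.65 without control on HFD. Without cluster 19, a cardiomyocyte-like cluster found in the YAP5SA libraries and not in the controls, 0 members passed with edgeR. Then 20 members had an unadjusted p under 0.05. The share of all genes with such a p is not given here for that fit, so these 20 have no background. Over all genes 139 fell and 373 rose without it, beside 625 and 1214 with every cluster. Without cluster 8 there were 21 falls among the members, beside 1748 over all genes, so the member counts moved with those of all genes.

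**Figure D1:**
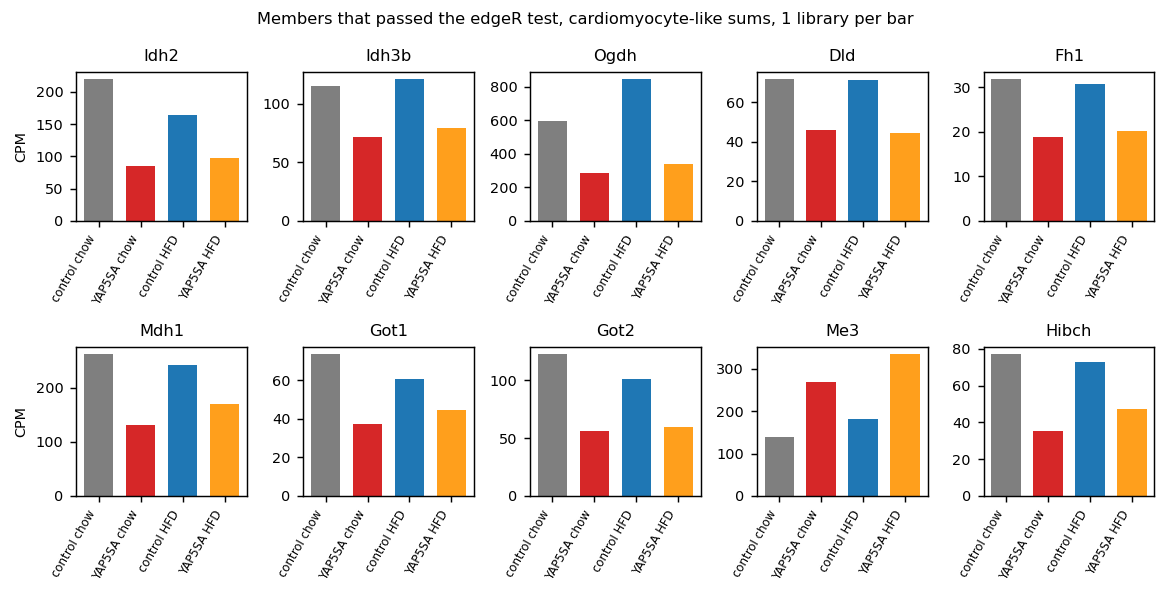
Level of each of the 10 members that passed the edgeR test in cardiomyocyte-like sums, as CPM on an axis from 0, with 1 bar per library and no replicates within a group. In 9 panels both control bars stand above both YAP5SA bars, and for Me3 both YAP5SA bars (268.2 and 335.0 CPM) stand above both control bars.

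Counted one library against one, 17 of the 35 members with a mean of at least 10 CPM were at least 1.5-fold lower on chow (48.6%), beside 18.8% of all 8522 genes at that level. On HFD there were 8 (22.9%), beside 9.69% of all genes. Members at least 1.5-fold higher numbered 1 on chow and 3 on HFD, beside 16.7% and 20.6% of all genes. On both diets together 7 members were lower (20%, beside 6.31%) and Me3 alone was higher (beside 11.1%). The median log2 fold of the members was -0.58 on chow and -0.41 on HFD, beside -0.05 and 0.11 over all genes. Scaling by TMM moved the median of all genes on HFD from 0.11 to -0.04, and 16 members were then at least 1.5-fold lower on HFD. The share of all genes that low was not counted with TMM scaling, so the 9.69% above is no background for these 16.

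**Figure D2:**
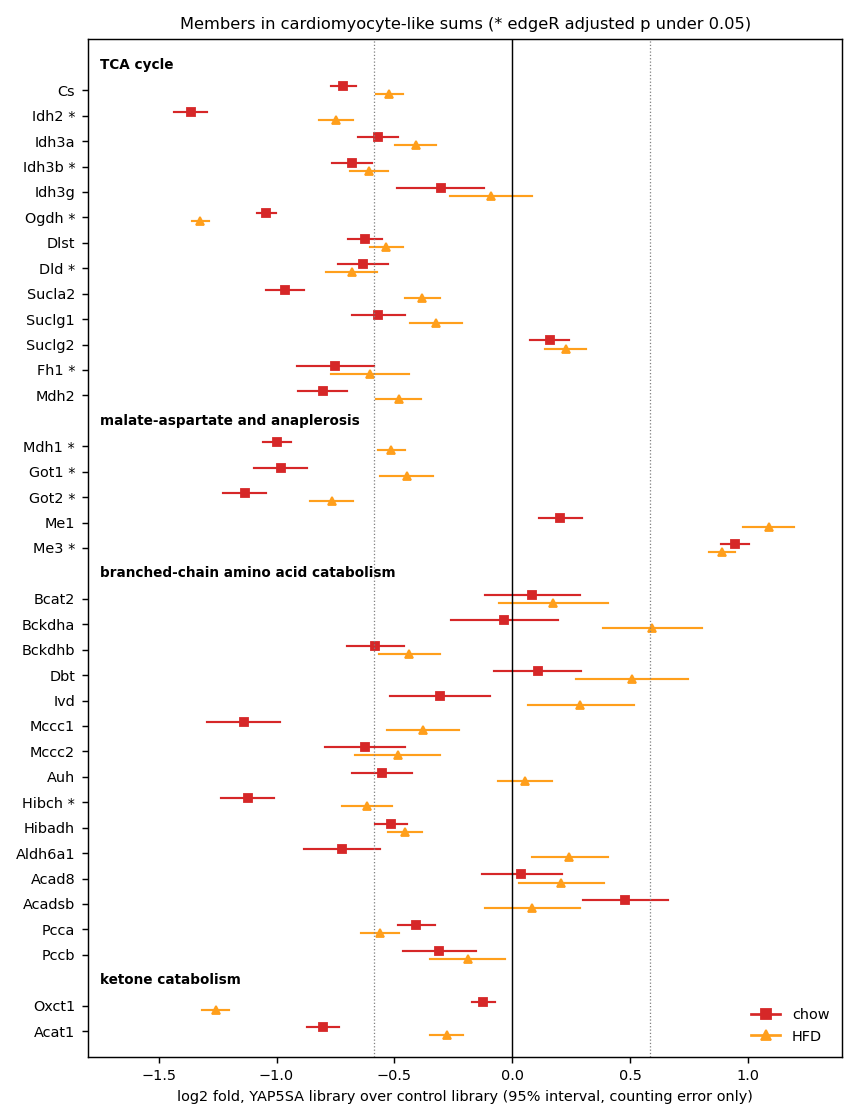
Log2 fold of the YAP5SA over the control library for the 35 members at a mean of at least 10 CPM in cardiomyocyte-like sums, by arm. Squares are chow, triangles HFD, bars 95% counting intervals, dotted lines 1.5-fold, and a star marks the edgeR test. All TCA genes but Suclg2 lie left of 0 on both diets, Me3 and Me1 lie right, and Oxct1 differs between the diets.

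Ogdh encodes the decarboxylating subunit of the 2-oxoglutarate dehydrogenase complex, a rate-controlling step of the cycle (ENSMUSG00000020456, chr11:6291633-6356642, plus strand, mm10). It stood at 595.3, 288.7, 847.4 and 338.7 CPM, from 7976 to 17972 UMIs per library. The control values did not overlap the YAP5SA values, and the control on HFD was the highest. The log2 fold on chow was -1.04 (interval -1.08 to -1.0). On HFD it was -1.32 (-1.36 to -1.29). In the edgeR fit Ogdh fell by 1.27 on the log2 scale (SE 0.227, adjusted p = 0.0222), and over 21 alternatives the adjusted p ranged from 3.3e-05 to 0.0845.

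Idh2 encodes the NADP-dependent mitochondrial isocitrate dehydrogenase, which also supplies NADPH (ENSMUSG00000030541, chr7:80094846-80115392, minus strand). It stood at 220.0, 85.46, 164.4 and 98.02 CPM. Both YAP5SA libraries lay below both controls. The log2 folds were -1.36 and -0.75, and the edgeR estimate was -1.13 (SE 0.186, adjusted p = 0.0175), which passed in 19 of 21 alternatives.

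Idh3b, a subunit of the NAD-dependent isocitrate dehydrogenase of the cycle, stood at 115.3, 71.99, 121.2 and 79.51 CPM and fell by 0.70 (SE 0.155, adjusted p = 0.0400). Dld, the dihydrolipoamide dehydrogenase shared by the 2-oxoglutarate, pyruvate and branched-chain complexes, stood at 71.78, 46.26, 71.44 and 44.56 CPM and fell by 0.71 (SE 0.165, adjusted p = 0.0451). Fh1, fumarate hydratase, stood at 31.79, 18.89, 30.6 and 20.14 CPM and fell by 0.74 (SE 0.173, adjusted p = 0.0472). In each of the 3 both YAP5SA libraries lay below both controls. All 3 were lost when diet was a term of the fit, and in the clusters with at least 50 nuclei in every library. Each call held in 9 of 21 alternatives. Within the 4 clusters of that kind, Idh3b had counting intervals below 0 on both diets in 1. Dld and Fh1 had them in 0.

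Of the 39 members 16 overlap another listed gene, 1 of them on the same strand (Acadsb with Gm44982). Of the called members Idh3b overlaps Nop56, Fh1 overlaps Kmo, Mdh1 overlaps Wdpcp and Me3 overlaps A230065N10Rik on the opposite strand, and whether strand was used in counting is not stated in the sources used here.

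The other TCA genes included 7 with both folds below 0 that missed the threshold: Cs, Idh3a, Idh3g, Dlst, Sucla2, Suclg1 and Mdh2, with log2 folds from -0.96 to -0.30 on chow and from -0.53 to -0.09 on HFD. Suclg2 differed from them. It encodes the subunit that makes succinyl-CoA ligase specific for GTP, and Sucla2 the subunit that makes it specific for ATP. Suclg2 stood at 89.35, 99.79, 84.03 and 98.26 CPM, with log2 folds of 0.16 and 0.23 and an edgeR adjusted p of 0.622. Sucla2 stood at 141.1, 72.36, 133.2 and 102.3 CPM, with log2 folds of -0.96 and -0.38 and an adjusted p of 0.0572. The difference between the 2 was not tested. In clusters with at least 50 nuclei in every library, the fold of Suclg2 on chow was -0.14.

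In the malate-aspartate shuttle, Got2, the mitochondrial aspartate aminotransferase (ENSMUSG00000031672, chr8:95864134-95888547, minus strand), stood at 122.6, 55.81, 101.4 and 59.61 CPM. The YAP5SA libraries lay near each other and well under both controls. Got2 fell by 1.01 in the edgeR fit (SE 0.166, adjusted p = 0.0171). Mdh1, the cytosolic malate dehydrogenase, stood at 262.2, 131.3, 242.5 and 169.8 CPM and fell by 0.81 (SE 0.167, adjusted p = 0.0336). Got1, the cytosolic aminotransferase, stood at 73.77, 37.35, 60.97 and 44.7 CPM and fell by 0.78 (SE 0.174, adjusted p = 0.0416). That call was lost when diet was a term of the fit, and in the clusters with at least 50 nuclei in every library. For Mdh1 and Got1 the gap was wider on chow, with log2 folds of -1.0 and -0.98, than on HFD, with -0.51 and -0.45. That difference between diets was not tested.

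The malic enzymes turn malate into pyruvate. Me3, the mitochondrial NADP-dependent form (ENSMUSG00000030621, chr7:89632392-89854359, plus strand), stood at 139.3, 268.2, 180.8 and 335.0 CPM. Its log2 folds were 0.95 (interval 0.89 to 1.01) and 0.89 (0.84 to 0.94). Me3 rose by 0.85 in the edgeR fit (SE 0.201, adjusted p = 0.0477), a call that held in 7 of 21 alternatives, over which the adjusted p ranged from 0.0118 to 0.33. Me1, the cytosolic NADP-dependent form, stood at 70.3, 80.97, 44.51 and 94.59 CPM, with log2 folds of 0.20 and 1.09. The lowest Me1 value was that of control on HFD, and the edgeR test did not pass (log2 0.56, SE 0.231, adjusted p = 0.175). Clusters 4, 5, 6 and 7 had at least 50 nuclei in every library, and there the Me1 folds on chow were 0.52, -0.0, -0.79 and -0.06. On HFD those within-cluster folds ran from 0.35 to 1.25. Me2, the NAD-dependent form, and Pcx, pyruvate carboxylase, lay under a mean of 10 CPM, at 7.923 to 9.989 and 4.055 to 4.887 CPM.

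Branched-chain catabolism starts with transamination by Bcat2 and oxidative decarboxylation by the complex of Bckdha, Bckdhb and Dbt, which the kinase Bckdk inhibits. Of the 16 genes 1 fell and 0 rose with edgeR, and 6 had an unadjusted p under 0.05, all with an estimate below 0, beside 3.67% of all genes that fell and 28.7% with such a p. Bcat2 stood at 15.7, 16.65, 12.12 and 13.67 CPM. Bckdha, the E1 alpha subunit, stood at 12.78, 12.49, 13.25 and 20 CPM, so YAP5SA on HFD was above the other 3, with log2 folds of -0.03 and 0.59 (interval 0.39 to 0.81). The direction on chow turned with doublets kept (0.06), with finer clusters (0.14) and in the clusters that every library shares with at least 50 nuclei (0.30), and within clusters 5 and 7, both of that kind, the folds on chow were 0.50 and 0.64. Its partner Bckdhb stood at 53.41, 35.69, 45.93 and 33.94 CPM, with log2 folds of -0.58 and -0.44 (adjusted p = 0.0949). Bckdk stayed under a mean of 10 CPM in its 4 sums, at 6.979 to 8.126 CPM.

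After that complex the pathways part. Hibch, which hydrolyses the valine intermediate 3-hydroxyisobutyryl-CoA (ENSMUSG00000041426, chr1:52844929-52920986, plus strand), stood at 77.2, 35.47, 72.9 and 47.54 CPM. Both controls lay above both YAP5SA libraries, and Hibch fell by 0.92 (SE 0.177, adjusted p = 0.0280). Mccc1, the biotin-carrying subunit of methylcrotonyl-CoA carboxylase in leucine breakdown, stood at 42.75, 19.4, 32.68 and 25.12 CPM, with log2 folds of -1.14 and -0.38 and an adjusted p of 0.0543. Acadsb, the short and branched-chain acyl-CoA dehydrogenase of isoleucine breakdown, stood at 17.14, 23.89, 16.5 and 17.51 CPM. It had the highest fold of the arm on chow, 0.48, and on HFD its fold was 0.09, or -0.06 with TMM scaling.

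The diets gave opposite directions for 2 genes of this arm, with both counting intervals off 0. The chow pair also differs in sex, which cannot be told apart from diet here. Ivd, isovaleryl-CoA dehydrogenase of leucine breakdown, stood at 16.29, 13.18, 12.45 and 15.22 CPM, with log2 folds of -0.31 on chow and 0.29 on HFD. Aldh6a1, methylmalonate semialdehyde dehydrogenase of valine breakdown, stood at 32.0, 19.4, 24.19 and 28.61 CPM, with log2 folds of -0.72 on chow and 0.24 on HFD. In both genes the 2 control libraries themselves differed, with HFD lower than chow by log2 folds of -0.39 and -0.40. The directions were kept with DESeq2 size factors, where the folds on HFD were 0.09 and 0.05 and no counting intervals were computed. Within clusters 5 and 7 the directions were again opposite, but in neither were both intervals off 0. In cluster 4 both folds of Ivd were above 0 (0.69 and 0.45) and both of Aldh6a1 below 0 (-0.23 and -0.64), with intervals that include 0. In cluster 6 Ivd was below 0 on both diets, while Aldh6a1 was above 0 on chow and below 0 on HFD. The remaining 7 genes of the arm at a mean of at least 10 CPM, Dbt, Mccc2, Auh, Hibadh, Acad8, Pcca and Pccb, had log2 folds from -0.62 to 0.11 on chow and from -0.56 to 0.51 on HFD.

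Oxct1 encodes the transferase that activates ketone bodies in tissues that burn them, and Acat1 the thiolase that splits acetoacetyl-CoA (Oxct1 is ENSMUSG00000022186, chr15:4026383-4155344, plus strand). Oxct1 stood at 262.6, 241.1, 300.6 and 125.7 CPM. Only YAP5SA on HFD was low, and the log2 fold of YAP5SA over control was -0.12 on chow, with an interval of -0.17 to -0.07. On HFD it was -1.26, with an interval of -1.32 to -1.20. The edgeR test over both diets did not pass (log2 -0.66, SE 0.341, adjusted p = 0.262). Acat1 stood at 188.6, 108.1, 151.7 and 125.0 CPM, with log2 folds of -0.80 and -0.28 and an adjusted p of 0.0727. Bdh1, the 3-hydroxybutyrate dehydrogenase, had 3, 5, 1 and 2 UMIs over all cardiomyocyte-like nuclei of a library and was too low to test.

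Of 38 other genes listed for the same pathways 37 were tested. Of these 6 fell (16.2%, beside 3.67% of all genes) and 1 rose (2.70%, beside 7.13%). The falls included the succinate dehydrogenase subunits Sdha and Sdhb, the carriers Slc25a11 and Slc25a12 of the malate-aspartate shuttle, and Echs1, an enoyl-CoA hydratase. The log2 estimates were -0.63 for Sdha, -1.05 for Slc25a11, -0.78 for Slc25a12 and -0.90 for Echs1. Sdhb stood at 63.66, 32.14, 77 and 29.55 CPM and fell by 1.25 (SE 0.198, adjusted p = 0.0156). The rise was Slc7a5, a transporter that takes up large neutral amino acids, at 1.524, 13.47, 1.933 and 10.62 CPM (log2 2.75, SE 0.322, adjusted p = 0.00672).

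For the maternal diet no gene passed the main test. The diet term of a fit with virus and diet, which leaves 1 residual degree of freedom, passed for 0 of 17018 genes with edgeR, and 658 genes (3.87%) had an unadjusted p under 0.05. With DESeq2 size factors 1 gene fell. Dbt was the member with an unadjusted p under 0.05 in edgeR's diet term (log2 -0.62, SE 0.239). Between the 2 control libraries 0 members were at least 1.5-fold higher on HFD and 2 were lower, Me1 (-0.66) and Dbt (-0.78), beside 4.37% and 3.54% of all genes. Between the 2 YAP5SA libraries 2 were higher, Auh (0.69) and Bckdha (0.68), and 1 was lower, Oxct1 (-0.94), beside 12.5% and 4.69%. These 2 libraries also differ in sex, which cannot be told apart from diet there. Dbt, the E2 subunit of the branched-chain complex, and Auh, a hydratase of leucine breakdown, are named after their values were seen.

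The cardiomyocyte-like nuclei of the 2 arms of the study fell largely into different clusters. Clusters 4, 5, 6 and 7 had at least 50 nuclei in every library and held 98.1% and 96.0% of control nuclei on chow and HFD, but 32.2% and 17.2% of YAP5SA nuclei. Clusters 8, 19 and 20 held 66.1% and 79.0% of YAP5SA nuclei and 1.49% and 0.725% of control nuclei. The members were left out of the genes used for clustering, but clusters are defined by the cells' expression, so levels in them are given without a test. Cluster 4 was led by genes of cell division such as Ect2 and Anln, and cluster 6 by atrial and haemoglobin genes. Cluster 19 held 7 of the 14 cardiomyocyte markers.

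Across clusters the TCA arm ranged from 681.4 CPM in cluster 19 to 2535 CPM in cluster 6. Cluster 6 was also the shallowest cardiomyocyte-like cluster, at a median of 1991 UMIs per nucleus, with 4208 in cluster 5 the next. The part of depth in its level was not tested. Cluster 19 was lowest in both YAP5SA libraries, at 767.9 CPM on chow and 681.4 on HFD, and cluster 20 stood at 1261 and 1207 CPM. Cluster 8 stood at 1481 and 1560 CPM. In clusters 5 and 7 controls stood between 1917 and 2272 CPM and YAP5SA nuclei between 1516 and 1678 CPM. Within each of the 4 shared clusters the arm was lower with YAP5SA on both diets, with log2 folds from -0.85 to -0.17 on chow and from -0.92 to -0.40 on HFD. The class sums weight these levels by the UMIs each cluster holds.

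**Figure D3:**
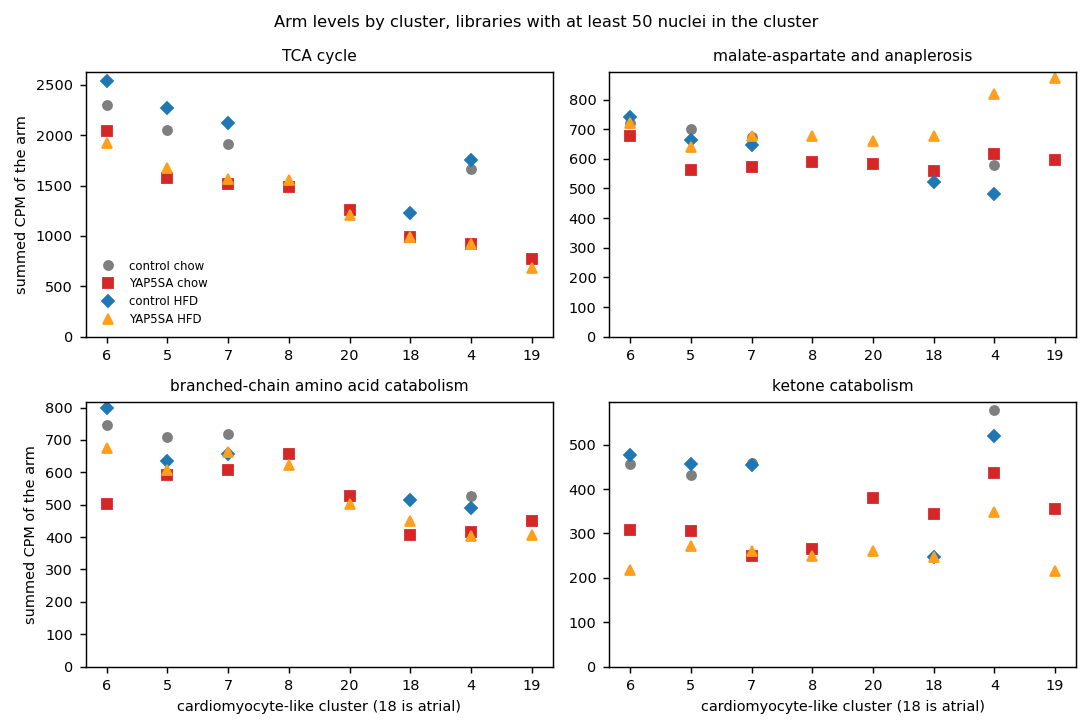
Summed CPM of each arm in each cardiomyocyte-like cluster, 1 symbol per library with at least 50 nuclei there, axes from 0, clusters placed roughly by falling TCA level. The TCA arm is lowest in cluster 19 (767.9 and 681.4 CPM), where the shuttle and anaplerosis arm of YAP5SA on HFD is at its highest (873.5 CPM).

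Within the YAP5SA libraries Me3 was high in the clusters where the TCA arm was low. It stood at 387 and 670 CPM in cluster 19 on chow and HFD, where Ogdh stood at 147 and 135 CPM. Cluster 4 of the controls did not follow this. There the TCA arm stood at 1660 and 1752 CPM, beside 1917 to 2272 CPM in clusters 5 and 7. Me3 of the controls was lower there too, at 97 and 101 CPM, beside 139.5 to 189.6 CPM in clusters 5 and 7. In cluster 4, Me3 stood at 97, 326, 101 and 519 CPM, with log2 folds of 1.75 and 2.35. In cluster 5 the folds were -0.10 and -0.08, with counting intervals that include 0, and in cluster 7 they were 0.13 and 0.34. In the sum over the 4 shared clusters the folds were 0.41 and 0.66, and Me3 did not pass the edgeR test there. Ogdh was lower within all 4 shared clusters on both diets with intervals off 0.

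Oxct1 was also lower within each shared cluster on both diets. On chow the log2 folds in clusters 4, 5, 6 and 7 were -0.16, -0.50, -0.67 and -1.11, and on HFD they were -0.54, -1.41, -1.48 and -1.47, with the interval of cluster 4 on chow including 0. The class sum on chow showed -0.12. Clusters 19 and 20, which hold most YAP5SA nuclei on chow, stood at 272 and 252 CPM there and at 138 and 133 CPM on HFD. The class sum on chow weights these levels by the UMIs of each cluster.

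**Figure D4:**
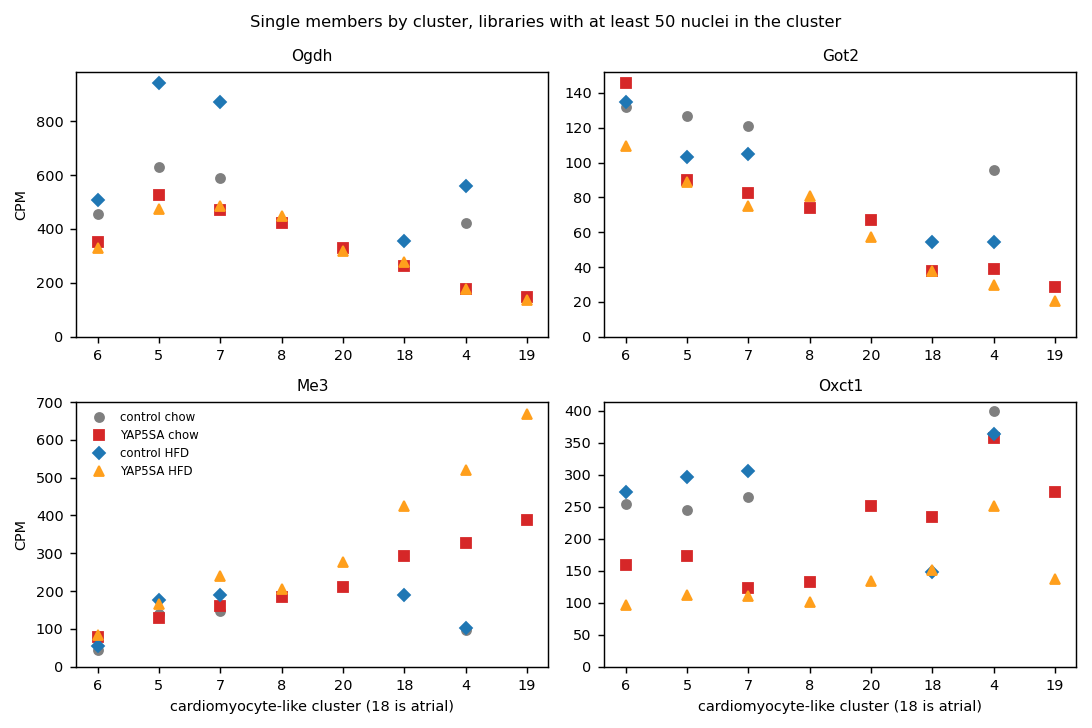
CPM of Ogdh, Got2, Me3 and Oxct1 in each cardiomyocyte-like cluster, 1 symbol per library with at least 50 nuclei there, axes from 0. Ogdh and Got2 are lowest in cluster 19, Me3 is highest there (670 CPM on HFD), and Oxct1 of YAP5SA on HFD lies below YAP5SA on chow in every cluster shown.

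Among the larger classes the arms differed in how far they marked cardiomyocytes. In fibroblast-like, endothelial-like and endocardial-like sums, the other classes of which each library held at least 200 nuclei, the TCA arm stood between 615.5 and 898.5 CPM. Cardiomyocyte-like sums of the controls were 2.35 to 2.95 times as high and those of YAP5SA 1.60 to 2.01 times. The shuttle and anaplerosis arm was 3.19 to 4.81 times as high in cardiomyocyte-like sums. The branched-chain arm was not, at 0.74 to 1.38 times. Among these classes Me3 was highest in cardiomyocyte-like sums in 4 of 4 libraries, 10.0 to 25.6 times its fibroblast-like level. Acadsb was lowest there in 4 of 4 libraries, at 0.13 to 0.35 times. Over the 39 members 17 were highest and 4 lowest in cardiomyocyte-like sums in every library, among these classes. Smaller classes were left out of this order. In epicardial-like sums the shuttle and anaplerosis arm stood at 316.5, 297.8, 314.6 and 385.3 CPM, and Me3 held 54.18% of its UMIs. How many of all genes have such an order was not counted, and these orders were not tested.

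**Figure D5:**
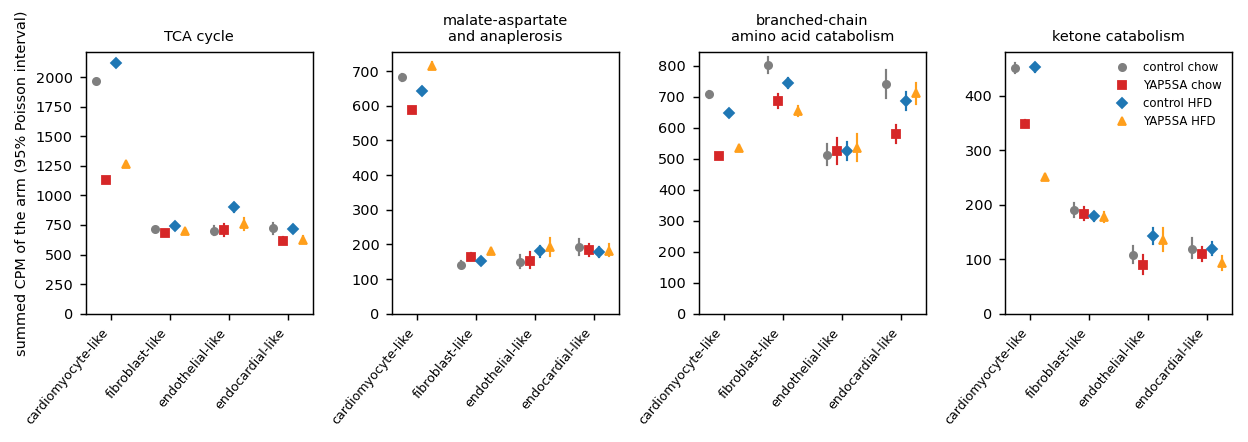
Summed CPM of each arm in the 4 classes of which each library held at least 200 nuclei, 1 symbol per library with its 95% Poisson interval, axes from 0. The TCA arm of cardiomyocyte-like sums separates controls (1967 and 2115 CPM) from YAP5SA (1129 and 1261 CPM), while the other classes lie between 615.5 and 898.5 CPM.

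Of the other classes tested, only fibroblast-like sums held members that passed, and few or none of all genes passed in the rest. In fibroblast-like sums 3 of 38 tested fell and 0 rose, where 5.71% of genes fell and 7.19% rose. An unadjusted p under 0.05 was found for 6 members there and for 28.0% of genes. Different clusters held most fibroblast-like nuclei in controls and with YAP5SA. Cluster 0 held 574, 135, 861 and 251 nuclei and cluster 1 held 404, 83, 1082 and 254, while cluster 12 held 54, 730, 106 and 1227 and cluster 3 held 63, 289, 98 and 575. Whether the members differ within these clusters was not tested. Acadsb stood at 120.1, 69.08, 123.1 and 71.87 CPM there and fell by 0.91 (SE 0.133, adjusted p = 0.00361). Suclg2 stood at 90.77, 45.0, 80.42 and 62.46 CPM and fell by 0.79 (SE 0.176, adjusted p = 0.0210), and Pccb, a subunit of propionyl-CoA carboxylase, at 44.45, 31.93, 46.25 and 32.93 CPM fell by 0.61 (SE 0.157, adjusted p = 0.0366). The control values of all 3 lay above both YAP5SA values. Ttn, as a measure of cardiomyocyte RNA in these sums, stood at 405.4, 294.1, 280.1 and 378.6 CPM, and its part in the result was not tested.

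In endocardial-like sums 0 of 37 members passed with edgeR, where 1.21% of genes fell and 0.865% rose. An unadjusted p under 0.05 was found for 6 members and for 13.8% of genes. Ttn stood there at 1436, 211.4, 791.6 and 272.7 CPM, lower in both YAP5SA libraries, and the part of cardiomyocyte RNA in these values was not tested. In endothelial-like sums 0 of 37 members and 0 of all genes passed with edgeR, and 2 members and 1336 genes (12.3%) had an unadjusted p under 0.05. In the sum over all kept nuclei, which needs no cell class, 0 of 39 members passed with edgeR, where 0.489% of genes fell and 1.54% rose. An unadjusted p under 0.05 was found for 13 members and for 19.5% of genes. Me3 had the lowest adjusted p there (0.0532) and Ogdh the next (0.0602). In sums over many nuclei fewer cells of a type and less RNA per cell cannot be told apart.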

How the data were processed

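The deposited files hold UMI counts per gene and nucleus, made with Cell Ranger 7.1.0 on mm10 per the submitters' processing notes; which filters the authors applied is not stated in the sources used here. Nuclei with at least 500 genes and at most 5% mitochondrial UMIs were kept, and Scrublet doublets were removed. Where its automatic threshold called under 0.5% of nuclei (both chow libraries), the top scores at 0.8% per 1000 nuclei were removed instead. Nuclei were clustered with scanpy 1.11.5 (3000 variable genes, 30 components, 15 neighbours, Leiden resolution 1) without the members, and 27 clusters were named from markers. Counts were summed per library and class, without 6 added sequences, and scaled to CPM. Folds used a prior of 0.5 count, and "at least 1.5-fold" was read at a mean of at least 10 CPM. The test was edgeR 4.0.16 (quasi-likelihood, TMM, filterByExpr, adjusted p under 0.05) in R 4.3.3; DESeq2 1.42.0 was an alternative. On simulated counts for the cardiomyocyte-like comparison (17048 genes), 98% and 100% of genes changed by a log2 fold of -2 and 2 were called, and 34% and 22% of those changed by -1 and 1. Named members passed edgeR, were 1.5-fold off the same way on both diets, went opposite ways on the diets or were the extremes of their arm; the others are given for their roles. Members, lists and tests were chosen with earlier results of these data known. Intervals cover counting error only. Some genes of the other pathway lists are not reported here.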

Additional observations from a re-analysis of the deposited data

Results flagged for a closer look

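In cardiomyocyte-like sums 3 results pointed opposite ways on the 2 diets, and the difference between diets was not tested in any of them. The chow pair also differs in sex, which cannot be told apart from diet in these results. Ivd had a log2 fold of YAP5SA over control of 0.289 on HFD and -0.306 on chow. Aldh6a1 had 0.242 on HFD and -0.721 on chow. The malate-aspartate and anaplerosis sum had 0.157 on HFD and -0.215 on chow. Between cell classes, Suclg2 had a log2 fold on chow of -1.011 in fibroblast-like sums, where its fold in cardiomyocyte-like sums was 0.159 on chow and 0.226 on HFD, and this difference between classes was not tested.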

How the results depend on the processing

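No paired analysis was possible because replicate numbers pair no libraries, each group holding 1. The fit with diet as a covariate, with 1 residual degree of freedom, sets control against YAP5SA within each diet. The diet test without single libraries was not run, since it has no residual degrees of freedom. No called result reversed, while the shuttle sum on HFD, which has no test, changed sign with DESeq2 scaling. Genes that rose numbered 1214 and fell 625: 1087 fell by DESeq2's Wald test, 1144 without the count filter, 558 and 278 with doublets kept, 610 and 294 with finer clusters, 373 to 2298 and 139 to 1748 without single clusters, 669 to 1407 and 230 to 862 without single libraries. Members that fell (9) became 15 by the Wald test and without the filter, 5 with diet as a covariate, 4 with doublets kept, 2 with finer clusters, 0 to 21 without single clusters and 1 to 8 without single libraries. Members that rose (1) became 0 with DESeq2 size factors, stricter filters, doublets kept, finer clusters, shared clusters, some clusters left out, and 0 to 0 without single libraries. With DESeq2 size factors 1 gene fell with diet. Arm folds on chow and HFD without the top member were -0.707 and -0.458 (TCA), -0.765 and -0.276 (shuttle), -0.802 and -0.279 (ketone) and, on HFD, -0.217 (branched-chain). With TMM scaling TCA was -0.771 and -0.892, and on HFD the shuttle was 0.011, branched-chain -0.415, ketone -0.998, with 16 members lower. With DESeq2 scaling TCA was -0.775 and -0.943, and on HFD the shuttle was -0.04, branched-chain -0.466, ketone -1.048, with 18 members lower, where the median of all genes was -0.094. Stricter filters gave TCA -0.832 on chow. With doublets kept chow gave TCA -0.667, shuttle -0.257 and branched-chain -0.424, and HFD gave TCA -0.64, shuttle 0.062, branched-chain -0.206, ketone -0.803, with 5 members lower. Finer clusters gave TCA -0.708 and branched-chain -0.44 on chow, and TCA -0.644, shuttle 0.062, branched-chain -0.209 and 5 members lower on HFD. Shared clusters gave 6 members lower and 0 higher, TCA -0.475, branched-chain -0.37 and ketone -0.483 on chow, and 2 members lower, TCA -0.574, branched-chain -0.19 and ketone -0.674 on HFD. The share of all genes past 1.5-fold was not counted under these settings, so the member counts at 1.5-fold have no background there. The cause of these shifts was not tested.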
